A study of Mus musculus with 22 samples.

Results

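Antibody and B cell genes were followed in the livers of 22 female C57BL/6 mice, with 1 RNA-seq library per mouse. The 9 genes were listed by symbol: the antibody chain genes Igha, Ighm and Igkc, the joining chain gene Jchain, the plasma cell chaperone gene Mzb1, the B cell genes Cd79a, Cd79b and Ms4a1, and the antibody transporter gene Pigr. All 9 were among the 53392 rows of the deposited gene table. Of these, 8 were among the 15928 genes with enough counts to be tested, and Mzb1, with 110 counts over all libraries, was not. The mice were 5 germ-free pregnant, 6 germ-free non-pregnant, 5 conventional pregnant and 6 conventional non-pregnant animals, and all received the same autoclaved chow, water and bedding. Pregnant livers were taken on gestation day 15. Conventional females were mated for a single night, whereas germ-free matings ran for several days and their day of conception was assumed, so the germ-free stage of pregnancy is known less exactly. The age labels carry no unit and ran from 91 to 121 in germ-free pregnant, from 92 to 105 in germ-free non-pregnant and from 70 to 77 in both conventional groups. Age and microbiota status therefore cannot be told apart.

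Antibodies are made of paired heavy and light chains. Ighm, Ighd, the Ighg genes, Ighe and Igha encode the constant part of the heavy chain and so set the class (IgM, IgD, IgG, IgE, IgA), while Igkc and the Iglc genes encode the constant part of the light chain. Naive B cells carry IgM and IgD. After class switching, which for IgA takes place largely in gut-associated lymphoid tissue in response to gut microbes, plasma cells secrete the antibody, and the joining chain links the units of polymeric IgA and IgM. The polymeric immunoglobulin receptor, encoded by Pigr, carries these polymers across epithelium, and in rodents hepatocytes use it to move IgA from blood into bile.

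Levels are given in CPM, estimated counts scaled to the library's TMM-adjusted total, and library totals were 18064491 to 30036912 estimated counts. At this depth 3 counts, the limit that a count of 0 allows, corresponded to 0.0946 to 0.190 CPM. Hepatocyte markers (Alb, Apoa1, Ttr and 3 others) were detected in every group, with a summed level of at least 49945 CPM, against 4.42 to 18.3 CPM for 8 B cell markers. In whole tissue fewer B lineage cells and less RNA per cell cannot be told apart. A pair of libraries stood apart in some immune markers. In germ-free non-pregnant replicate 1, markers of dendritic cells and MHC class II summed to 606 CPM. The other 5 libraries of its group ran from 116 to 248 CPM. In the same library T and NK cell markers summed to 14.8 CPM, against 4.75 to 13.5 CPM in the other 5. Of its Kupffer cell markers 11 of 12 were the highest of the group, but the sum of 602 CPM was exceeded in each other group. Its B cell markers did not stand apart, at 10.0 CPM against 4.42 to 12.9 CPM. Its neutrophil markers were the lowest of the group, at 0.821 CPM against 0.853 to 2.93 CPM. In conventional pregnant replicate 2 the same MHC class II list summed to 1765 CPM, against 91.0 to 172 CPM in the other 4. There T and NK cell markers summed to 42.9 CPM against 6.38 to 8.83 CPM, and neutrophil markers to 26.6 CPM against 0.954 to 3.73 CPM. Its B cell markers summed to 18.3 CPM against 7.87 to 9.83 CPM, with 6 of the 8 the highest of the group. Its Kupffer cell markers summed to 1606 CPM against 307 to 560 CPM. Results below are therefore also given without these libraries where they matter, an alternative chosen after the data were seen.

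Across the design, Pigr was the gene that passed the test, and Igha had the largest fitted difference between germ-free and conventional mice, in the pregnant groups, without passing it. Tests were edgeR quasi-likelihood tests on all 22 libraries with Benjamini-Hochberg adjustment over the whole table, and an adjusted p under 0.05 counts here as a call. In pregnancy in conventional mice 1 of the 8 genes tested was called, Pigr, which fell, and 9.02% of all genes tested were called in that comparison. None of the 8 was called in germ-free against conventional mice, whether non-pregnant, pregnant or averaged over both, where 0.157%, 0.132% and 0.753% of all genes were called. None was called in pregnancy in germ-free mice, where 10.8% of all genes were called, or in the interaction of pregnancy and germ-free status, where 0% were. At an unadjusted p under 0.05 the 8 genes gave 1, 2 and 2 results in those germ-free comparisons, where 6.01%, 10.5% and 10.7% of all genes did. They gave 1 in pregnancy in germ-free mice, against 24.1% of all genes, 1 in pregnancy in conventional mice, against 22.0%, and 2 in the interaction, against 5.67% or 903 genes. With DESeq2 in place of edgeR, Igha was called in germ-free against conventional pregnant mice, where DESeq2 called 0.682% of all genes, in the average over pregnancy states, where it called 1.91%, and in pregnancy in germ-free mice, where it called 13.8%. DESeq2 called none of the 8 in germ-free against conventional non-pregnant mice or in the interaction. Germ-free pregnant libraries held at most 3 Igha counts, and Igha passed the filter on low counts through libraries where it was higher. The DESeq2 calls of Igha are therefore given as a description.

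**Figure D1:**
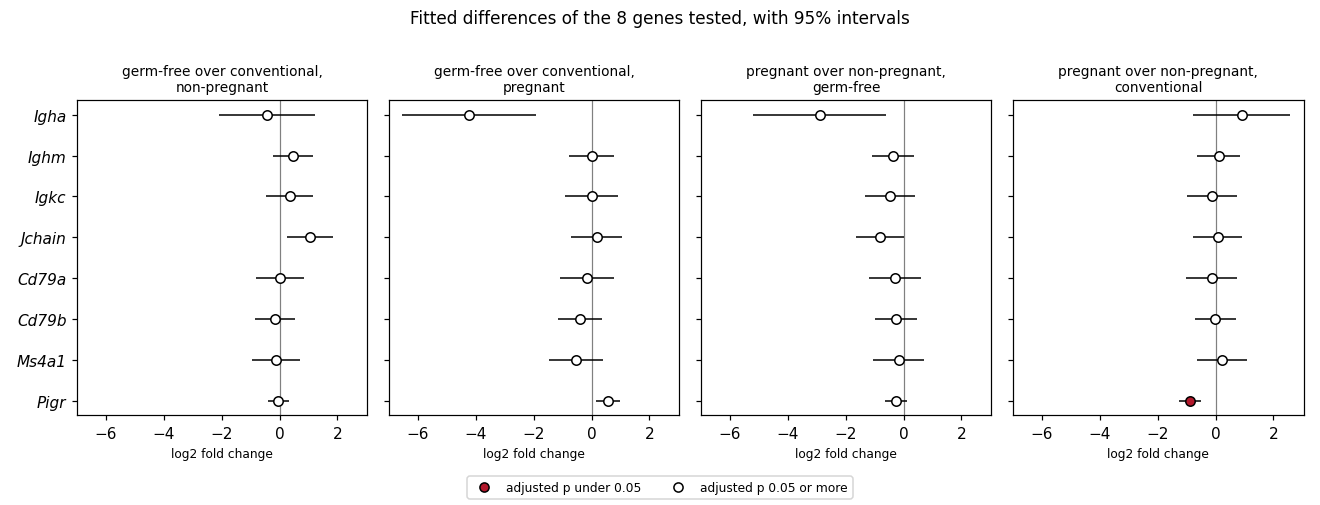
Fitted log2 fold changes (points) with 95% intervals (lines) for the 8 genes tested, in 4 comparisons, with a filled point for an adjusted p under 0.05. The filled point is Pigr in pregnancy in conventional mice at -0.88, and the point farthest from 0 is Igha in germ-free over conventional pregnant mice at -4.22.

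Igha (ENSMUSG00000095079.6), the constant region of the IgA heavy chain, lies in the heavy-chain locus on chromosome 12 (113254830 to 113260236, minus strand, GRCm38). Germ-free pregnant libraries had 3, 0, 2, 0 and 0 counts, or 0.184, 0, 0.0930, 0 and 0 CPM. Conventional pregnant libraries had 8, 51, 39, 15 and 4 counts, or 0.332, 2.23, 2.17, 0.522 and 0.209 CPM. Every germ-free pregnant library was below every conventional pregnant library, although the highest of the first group and the lowest of the second differed by a single count. The share of all genes tested with such a separation is not given here, so it is a description.

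In non-pregnant mice the Igha levels of the germ-free group ran from 0.0526 to 2.05 CPM with a median of 0.0888 CPM, against 0.341 to 0.797 CPM with a median of 0.587 CPM in the conventional group. Of the 6 germ-free libraries, 5 held 1 or 2 counts and lay below all conventional non-pregnant libraries. The sixth, replicate 1, held 60 counts, lay above all of them, and was 24.5 times the mean of the other 5. Over both pregnancy states the 10 germ-free libraries other than this one had 0 to 3 Igha counts, and the 11 conventional libraries had 4 to 51.

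Summed over libraries, germ-free pregnant mice had 5 Igha counts and conventional pregnant mice 117. Scaled to library size the ratio was 0.0501, with a 95% interval of 0.0160 to 0.120 that covers counting error only. In non-pregnant mice the sums were 69 and 81 counts and the ratio was 0.883 (0.631 to 1.23). Without germ-free replicate 1 they were 9 and 81 counts, with a ratio of 0.147 (0.0647 to 0.292). These intervals leave out the spread between mice, which ran from 4 to 51 counts among conventional pregnant libraries, and replicate 1 is singled out because of its count.

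The fitted log2 fold change of Igha in germ-free over conventional pregnant mice was -4.22 ± 1.12 (SE), with an edgeR adjusted p of 0.169. DESeq2 gave -4.34 and an adjusted p of 0.0154. With at most 3 counts in each germ-free pregnant library, that call is given as a description. In non-pregnant mice the edgeR value was -0.43 ± 0.80, adjusted p = 0.999, and without germ-free replicate 1 it was -2.71, adjusted p = 0.238. Averaged over pregnancy states Igha was at -2.33 ± 0.69, adjusted p = 0.144 with edgeR and 0.0296 with DESeq2. Leaving out germ-free non-pregnant replicate 1 moved that average to -3.47, adjusted p = 0.0024 with edgeR, in a fit that called 0.663% of all genes. Each library was left out in turn, and this one is singled out because of its values. In that fit germ-free libraries held at most 3 Igha counts, so Igha passed the filter on low counts through the conventional libraries, and the value is given as a description. Without either of the libraries that stood apart the average was -3.22, adjusted p = 0.0035. For Igha the average thus passed the edgeR threshold only in fits without germ-free non-pregnant replicate 1, among the alternatives run, and passed the DESeq2 threshold with all libraries. All of these are given as a description, since Igha passed the filter through libraries where it was higher.

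Pregnancy gave no edgeR call for Igha. In germ-free mice the log2 fold change was -2.90 ± 1.11 for pregnant over non-pregnant, with an edgeR adjusted p of 0.101 and a DESeq2 adjusted p of 0.0413. Without germ-free non-pregnant replicate 1 it was -0.61, adjusted p = 0.767 (edgeR). The DESeq2 call in germ-free pregnancy is again given as a description. In conventional mice the log2 fold change was 0.90 ± 0.81, adjusted p = 0.585. The interaction was -3.80 ± 1.38, adjusted p = 0.863, and -1.51 without germ-free non-pregnant replicate 1. By group medians Igha was lowest in germ-free pregnant mice at 0 CPM, then in germ-free non-pregnant mice, and higher in both conventional groups, with 0.522 CPM in the pregnant and 0.587 CPM in the non-pregnant one. Neighbouring groups overlapped within each microbiota state.

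**Figure D2:**
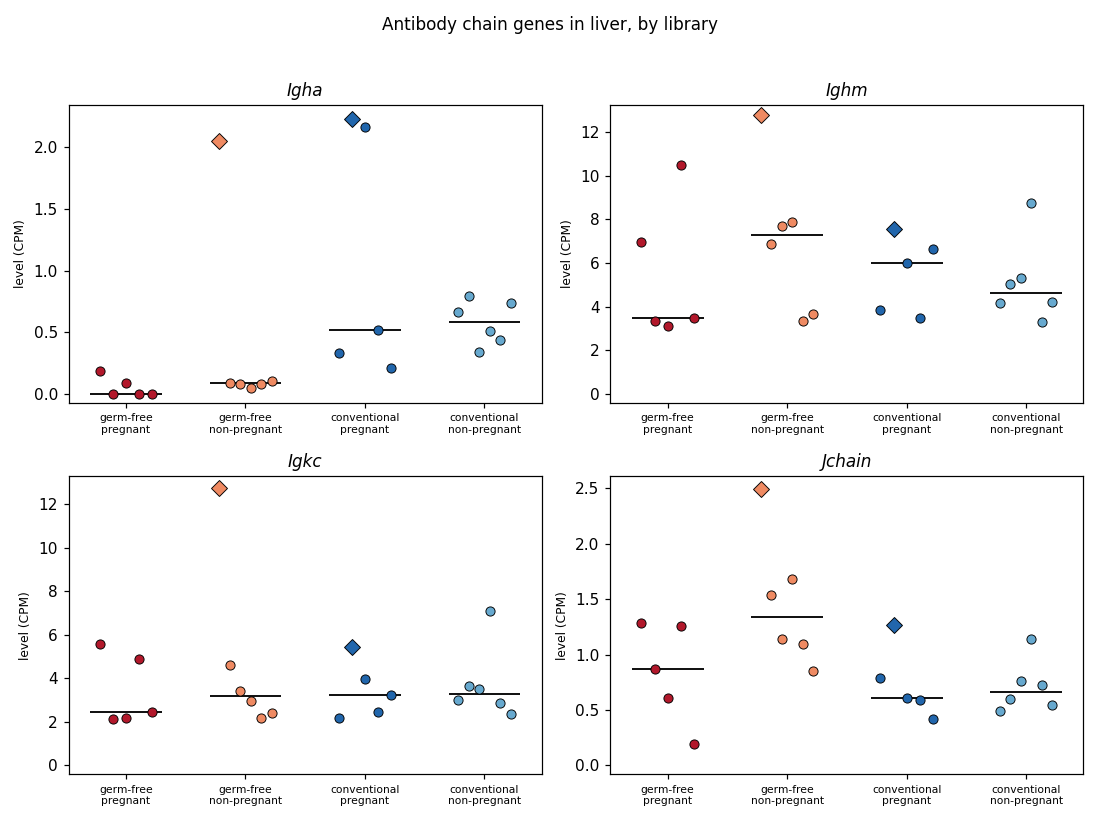
Levels in CPM of Igha, Ighm, Igkc and Jchain in each library (points) by group, with the group median (line), and diamonds for germ-free non-pregnant replicate 1 and conventional pregnant replicate 2. Apart from the germ-free diamond at 2.05 CPM, germ-free Igha points lie at or below 0.184 CPM and conventional ones at or above 0.209 CPM, while the groups overlap for Ighm, Igkc and Jchain.

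Ighm (ENSMUSG00000076617.9, chromosome 12, 113418558 to 113422730, minus strand), the constant region of the IgM heavy chain, showed no such separation. It stood at 6.97, 3.36, 3.11, 10.5 and 3.50 CPM in germ-free pregnant mice, against 3.86, 7.57, 6.01, 3.48 and 6.64 CPM in conventional pregnant mice. The germ-free values bracketed the conventional ones, and the log2 fold change was 0.00 with a 95% interval of -0.78 to 0.77 (adjusted p = 1.00, edgeR). In non-pregnant mice Ighm ran from 3.33 to 12.8 CPM, median 7.29, in the germ-free group, against 3.28 to 8.76 CPM, median 4.65, in the conventional group. Those groups overlapped, with replicate 1 of the germ-free group at the top, and the log2 fold change was 0.47 ± 0.34 (SE), adjusted p = 0.999. Pregnant over non-pregnant, Ighm was at -0.36 ± 0.36 in germ-free mice (adjusted p = 0.589) and at 0.11 ± 0.36 in conventional mice (adjusted p = 0.906).

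Igkc (ENSMUSG00000076609.2, chromosome 6, 70726435 to 70726966, plus strand), the constant region of the kappa light chain, is shared by antibodies of all classes and overlaps the long non-coding gene Gm30211 on the same strand, so its reads are not certain to be its own. Its levels were 5.57, 2.12, 2.18, 4.90 and 2.44 CPM in germ-free pregnant mice, against 2.16, 5.43, 3.95, 2.44 and 3.241 CPM in conventional pregnant mice. In non-pregnant mice it ran from 2.19 to 12.8 CPM, median 3.19, in the germ-free group, against 2.36 to 7.11 CPM, median 3.27, in the conventional group. Both pairs of groups overlapped. The 12.8 CPM came from germ-free replicate 1, which was 4.10 times the mean of the other 5. No comparison of Igkc passed the edgeR test, with the smallest adjusted p at 0.546, and the 95% interval of the log2 fold change in germ-free over conventional pregnant mice was -0.90 to 0.91.

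The share of each antibody class was read per kilobase of exon, because the constant genes differ in length. Igha made up a median of 0% of the heavy-chain constant signal in germ-free pregnant mice, with a highest value of 1.73%, against a median of 7.62% and a range of 1.63% to 17.0% in conventional pregnant mice. It made up 0.392% to 8.09% in germ-free non-pregnant mice, with a median of 1.00%, against 3.01% to 7.82% and a median of 6.61% in conventional non-pregnant mice. The 8.09% was germ-free replicate 1, and the other 5 reached at most 1.69%. Ighm was the main class in every library, with medians of 81.6% and 74.4% in germ-free pregnant and germ-free non-pregnant mice and of 66.5% and 67.7% in conventional pregnant and conventional non-pregnant mice. The Ighm ranges of the pregnant groups did not meet, at 76.4% to 84.8% in germ-free and 61.4% to 73.3% in conventional mice. Those of the non-pregnant groups overlapped, at 69.9% to 83.1% in germ-free and 60.4% to 73.4% in conventional mice. The shares of a library make up a whole, so a lower share of a class raises the others. These shares rest on 68 to 554 heavy-chain counts per library and were not tested.

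**Figure D3:**
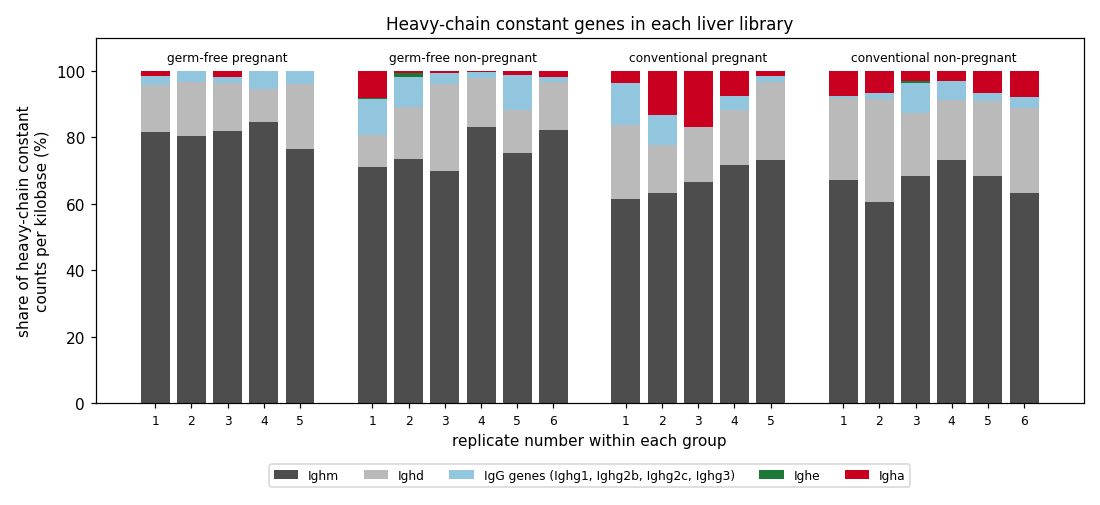
Share (%) of each heavy-chain constant gene in the summed heavy-chain constant counts per kilobase of exon, 1 bar per library, by group and replicate number. Igha is largest in conventional pregnant replicate 3 at 17.0% and is at 0% in 3 germ-free pregnant libraries.

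Of the 12 constant region genes measured, 5 had enough counts to be tested (Ighm, Ighd, Igha, Igkc and Iglc2), and edgeR with all libraries called none of them in any comparison. The DESeq2 calls of Igha are given above as a description. Ighd, the IgD heavy chain of naive B cells, averaged 0.918 ± 0.302 CPM in germ-free pregnant mice (SD, n = 5) and 1.52 ± 0.493 CPM in conventional pregnant mice (SD, n = 5), with a log2 fold change of -0.72 ± 0.39 (SE) and an edgeR adjusted p of 0.526. Iglc2, a lambda light chain, was at -0.67 ± 0.57 in the same comparison, adjusted p = 0.725. The IgG genes were too low to test. Ighg1 had 13 counts in germ-free pregnant mice and 7 in conventional pregnant mice, all 7 of them in replicate 2. Non-pregnant germ-free mice held 64 counts of it, 34 of them in replicate 1, and conventional non-pregnant mice 9. The other constant genes below the filter were Ighg2b, with 2, 43, 15 and 22 counts in germ-free pregnant, germ-free non-pregnant, conventional pregnant and conventional non-pregnant mice, Ighg2c with 4, 15, 24 and 7, Ighg3 with 12, 3, 4 and 12, Ighe with 0, 3, 0 and 1, Iglc1 with 10, 37, 23 and 17, and Iglc3 with 12, 29, 32 and 47. Without replicate 1 the germ-free non-pregnant sums were 20 for Ighg2b, 4 for Ighg2c, 12 for Iglc1 and 16 for Iglc3. The Ighg and Iglc genes resemble each other in sequence, so reads may have been divided among them.

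Variable segments gave the same picture of thin coverage. Of 185 Ighv, 160 Igkv and 3 Iglv segments in the table, 80, 79 and 3 had any count, and none had enough to be tested. The segments with the highest mean level were Ighv6-3, Ighv5-17 and Ighv9-3, with 31, 25 and 25 counts over all libraries, then Igkv6-32, Igkv1-110 and Igkv2-137 with 40, 37 and 35, and Iglv1, Iglv3 and Iglv2 with 53, 42 and 33. Germ-free non-pregnant replicate 1 had 66 Ighv and 98 Igkv counts, and its most abundant segments were Ighv9-3 with 11 counts, 16.7% of its Ighv counts, and Igkv4-55 with 8 counts, 8.16% of its Igkv counts. Its Ighv and Igkv counts were therefore spread over several segments, with 8 Ighv and 14 Igkv segments at 3 or more counts. Of its 10 Iglv counts, 7 were in Iglv1. Segment counts are not linked to an antibody class here, so they do not describe its Igha counts. Conventional pregnant replicate 2 had 20 Ighv and 40 Igkv counts, with at most 15.0% in a single Ighv segment.

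Jchain (ENSMUSG00000067149.6, chromosome 5, 88519809 to 88527891, minus strand), which joins polymeric IgA and IgM, did not follow Igha. It was at 1.28, 0.872, 0.604, 1.26 and 0.192 CPM in germ-free pregnant mice, against 0.788, 1.27, 0.612, 0.592 and 0.418 CPM in conventional pregnant mice. In non-pregnant mice it ran from 0.853 to 2.50 CPM, median 1.34, in the germ-free group, against 0.489 to 1.14 CPM, median 0.661, in the conventional group. The pregnant groups overlapped, and 4 of the 6 germ-free non-pregnant libraries lay above all conventional non-pregnant ones.

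The log2 fold change of Jchain in germ-free over conventional non-pregnant mice was 1.06 ± 0.38 (SE), with an unadjusted p of 0.0106 that did not survive adjustment (adjusted p = 0.515, edgeR). Without germ-free replicate 1 it was 0.84. In pregnant mice the same contrast gave 0.18 ± 0.42, adjusted p = 0.927. Pregnancy gave -0.81 ± 0.40 in germ-free mice, adjusted p = 0.221, and 0.07 ± 0.40 in conventional mice, adjusted p = 0.949. The 10 germ-free libraries with 0 to 3 Igha counts held 4 to 33 Jchain counts, against 8 to 29 Jchain counts in the 11 conventional libraries.

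Mzb1 (ENSMUSG00000024353.4, chromosome 18, 35647267 to 35649367, minus strand) encodes an endoplasmic reticulum protein of marginal zone B cells and plasma cells that helps antibody assembly and secretion. It had 7, 1, 2, 0 and 5 counts in germ-free pregnant mice, against 4, 13, 3, 3 and 3 in conventional pregnant mice. Germ-free non-pregnant libraries had 2 to 16 counts, and conventional non-pregnant libraries 1 to 9. All groups overlapped and no test was made. Its gene model overlaps that of SPATA24, as the annotation spells it, on the same strand, so these few reads may not all be from Mzb1.

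Cd79a and Cd79b encode the signalling pair of the B cell receptor, and Ms4a1 encodes the B cell surface protein CD20. Cd79a (ENSMUSG00000003379.7, chromosome 7, 24897381 to 24902197, plus strand) was at 3.43, 0.810, 0.372, 2.10 and 1.198 CPM in germ-free pregnant mice, against 1.04, 2.80, 2.56, 0.975 and 1.41 CPM in conventional pregnant mice. In non-pregnant mice it ran from 1.06 to 3.08 CPM, median 1.83, in the germ-free group, against 1.07 to 2.51 CPM, median 2.15, in the conventional group. The germ-free values again bracketed the conventional ones in both states. The widest spread was among germ-free pregnant mice, with an SD of 1.21 around a mean of 1.58 CPM (n = 5).

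Cd79b (ENSMUSG00000040592.11, chromosome 11, 106311341 to 106314762, minus strand) was at 1.59, 0.934, 0.744, 1.63 and 1.49 CPM in germ-free pregnant mice, against 1.53, 3.15, 0.778, 1.43 and 1.52 CPM in conventional pregnant mice. Ms4a1 (ENSMUSG00000024673.9, chromosome 19, 11249675 to 11266241, minus strand) was at 0.550, 0.747, 0.604, 1.12 and 0.671 CPM in germ-free pregnant mice, against 0.580, 2.41, 0.778, 0.627 and 0.993 CPM in conventional pregnant mice. The highest value of all 22 libraries for both genes was conventional pregnant replicate 2, the library with high T cell, neutrophil and MHC class II markers. In non-pregnant mice Cd79b ran from 0.639 to 2.23 CPM, median 1.60, in the germ-free group, against 0.757 to 2.09 CPM, median 1.84, in the conventional group. For Ms4a1 the germ-free non-pregnant range was 0.266 to 1.63 CPM, median 0.796, against 0.599 to 1.65 CPM, median 0.812, in the conventional non-pregnant group. The gene model of Ms4a1 overlaps that of an antisense gene, 4930526L06Rik. The library kit does not keep the strand, so some of these reads may not be from Ms4a1.

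No comparison of Cd79a, Cd79b or Ms4a1 passed the edgeR test. In germ-free over conventional pregnant mice the log2 fold changes were -0.15 ± 0.45 for Cd79a, -0.40 ± 0.37 for Cd79b and -0.54 ± 0.45 for Ms4a1 (SE), with adjusted p from 0.718 to 0.943. Without both libraries that stood apart they changed sign for Cd79a and Ms4a1, at 0.12 and 0.02. Their 95% intervals in germ-free over conventional non-pregnant mice all lay between -0.97 and 0.86.

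**Figure D4:**
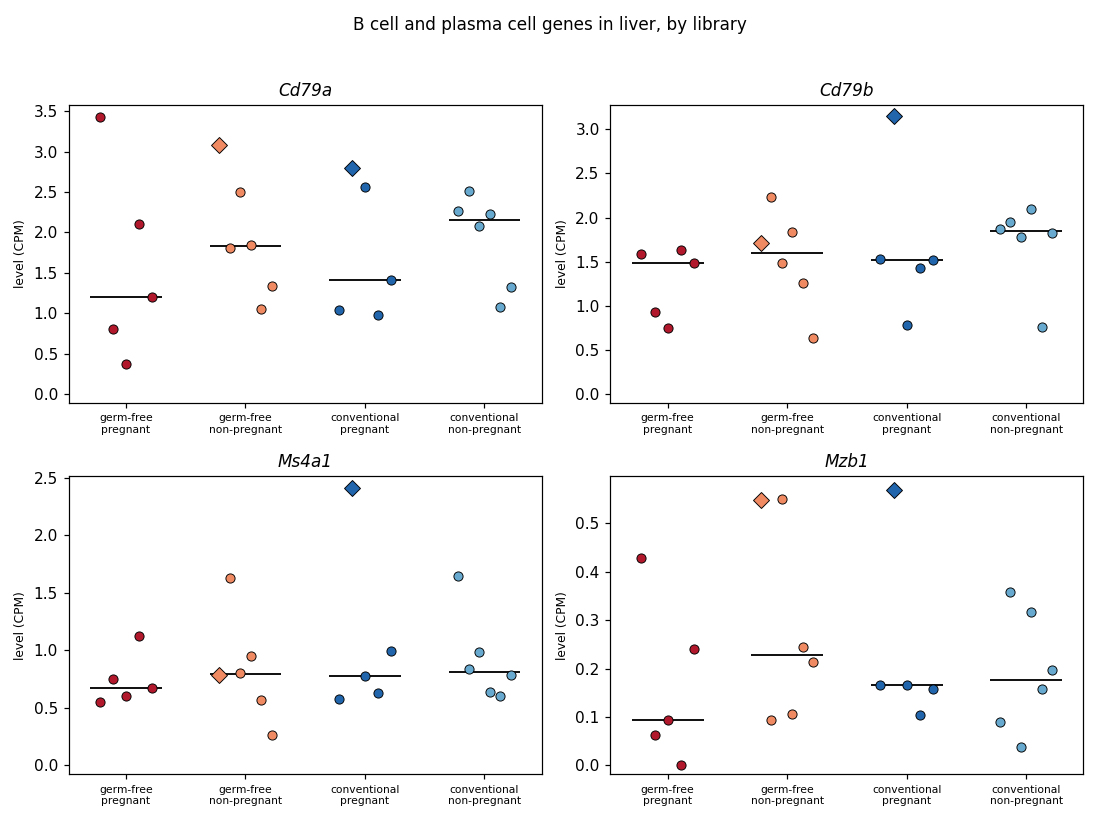
Levels in CPM of Cd79a, Cd79b, Ms4a1 and Mzb1 in each library (points) by group, with the group median (line), and diamonds for germ-free non-pregnant replicate 1 and conventional pregnant replicate 2. All groups overlap, and the conventional pregnant diamond is the highest point of all libraries for Cd79b at 3.15 CPM and for Ms4a1 at 2.41 CPM.

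Pigr (ENSMUSG00000026417.13, chromosome 1, 130826684 to 130852249, plus strand), the receptor that carries polymeric IgA and IgM into bile, was by far the most abundant of the 9 genes. Per kilobase of exon its level, averaged over group means, was 296 CPM, followed by Igkc at 7.22, Ighm at 3.07, Cd79a at 1.23, Cd79b at 1.08, Jchain at 0.373, Igha at 0.201, Mzb1 at 0.182 and Ms4a1 at 0.144 CPM per kilobase. Its upstream sequence is shown because Pigr was the gene with a call, and because the human PIGR promoter is known to be driven through an E-box bound by upstream stimulatory factors. The 250 bases before the RefSeq start of mouse Pigr (GRCm38.p6, chr1:130826434-130826683, plus strand) are printed 5′ to 3′, with matches to the E-box letters CACGTG and CAGGTG on either strand in capitals.
Pigr: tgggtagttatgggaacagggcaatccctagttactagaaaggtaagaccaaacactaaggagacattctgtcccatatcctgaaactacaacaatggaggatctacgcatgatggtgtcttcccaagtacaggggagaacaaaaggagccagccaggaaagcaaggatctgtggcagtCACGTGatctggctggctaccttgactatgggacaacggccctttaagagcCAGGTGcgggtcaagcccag

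The CACGTG match begins 71 bases before the start, at -71, and the CAGGTG match at -20. Among 32841 mouse promoter windows of this length, 6.02% held CACGTG and 17.2% held CAGGTG on either strand. The octamer ATGCAAAT of immunoglobulin promoters was not found in this window, and 1.60% of all windows held it. Such matches describe letters and are not evidence of binding.

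Pigr fell in pregnancy in conventional mice. It was at 972, 632, 719, 616 and 959 CPM in conventional pregnant mice, against 1137 to 1981 CPM with a median of 1390.3 CPM in conventional non-pregnant mice. The groups did not overlap: every pregnant library was below every non-pregnant one. The share of all genes tested with such a separation is not given here, so it is a description. Means were 779 ± 174 CPM (SD, n = 5) and 1438.5 ± 313 CPM (SD, n = 6), and the log2 fold change was -0.88 ± 0.19 (SE), adjusted p = 0.00414 with edgeR and 2.68e-05 with DESeq2. Pigr remained past the threshold when each library was left out in turn, with log2 fold changes of -0.98 to -0.77 and a highest adjusted p of 0.0163.

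The difference was present at both age labels of the conventional mice. At age label 70 the pregnant mice were at 632 and 972 CPM, against 1433 and 1574 CPM in non-pregnant mice. At age label 77 the 3 pregnant mice ran from 616 to 959 CPM, against 1137 to 1981 CPM in the 4 non-pregnant mice. Hepatocyte markers summed to a median of 147311 CPM in conventional pregnant mice and 70152 CPM in conventional non-pregnant mice. Their ranges overlapped, at 64983 to 232882 CPM in the pregnant and 57944 to 85084 CPM in the non-pregnant group. The 64983 CPM was pregnant replicate 2, whose Pigr was at 632 CPM. Mitochondrially encoded counts made up 5.90% to 15.7% of conventional pregnant libraries, against 8.44% to 23.6% of conventional non-pregnant ones. The part of these shifts in the Pigr difference was not tested.

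In germ-free mice Pigr did not pass the test. Pregnant germ-free livers were at 1091, 1353, 1151, 928 and 1275 CPM, against 1011 to 1948 CPM with a median of 1374 CPM in non-pregnant germ-free livers. The groups overlapped, with 1 pregnant library below all non-pregnant ones. The log2 fold change was -0.27 ± 0.19 (SE), 95% interval -0.66 to 0.12, adjusted p = 0.419 (edgeR). The difference between the pregnancy effects, germ-free minus conventional, was 0.62 ± 0.27 on the log2 scale with an unadjusted p of 0.0299 and an adjusted p of 0.863 (edgeR), so a difference between germ-free and conventional mice in this response was not shown.

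Set against conventional pregnant mice, germ-free pregnant mice averaged 1159 ± 165 CPM of Pigr (SD, n = 5) and conventional pregnant mice 779 ± 174 CPM (SD, n = 5), and 4 of the 5 germ-free libraries lay above all conventional ones. The log2 fold change was 0.57 ± 0.20 (SE), adjusted p = 0.316 (edgeR). In non-pregnant mice the germ-free mean was 1395 ± 323 CPM (SD, n = 6) and the conventional mean 1438.5 ± 313 CPM (SD, n = 6), with a log2 fold change of -0.04 ± 0.18 and a 95% interval of -0.42 to 0.33. By median the order of the groups was conventional non-pregnant, germ-free non-pregnant, germ-free pregnant and conventional pregnant, and the first 3 overlapped each other.

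**Figure D5:**
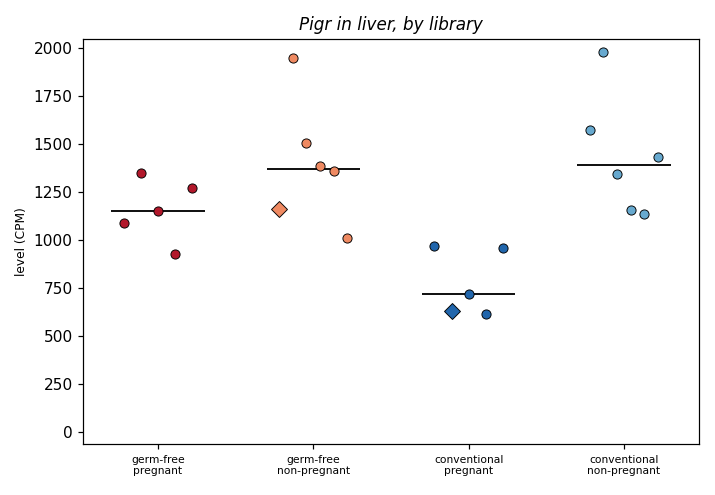
Level of Pigr in CPM in each library (points) by group, with the group median (line), and diamonds for germ-free non-pregnant replicate 1 and conventional pregnant replicate 2. The 5 conventional pregnant libraries lie at 616 to 972 CPM, all below the 6 conventional non-pregnant libraries, while the germ-free groups overlap.

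The surrounding pathway was read from lists of genes. With all libraries edgeR called no gene of any list in germ-free against conventional mice, in either pregnancy state or on average, or in the interaction. Igha, which is in the constant region list, was called by DESeq2 and without germ-free non-pregnant replicate 1 as given above, and the other list genes are given by edgeR only. Among genes of plasma cells and antibody secretion, 9 of 16 tested rose and none fell in pregnancy in germ-free mice, where 10.8% of all genes were called, with a median log2 fold change of 0.79 over the list against -0.02 over all genes. In conventional mice 6 of 16 rose and none fell, where 9.02% of all genes were called, with a median of 0.52 against 0.04 over all genes. Hepatocyte markers summed to 120603 to 184250 CPM in germ-free pregnant mice, against 49945 to 85755 CPM in germ-free non-pregnant mice, and erythroid markers summed to a median of 2243 CPM in germ-free pregnant and 553 CPM in germ-free non-pregnant mice. In conventional mice the medians were 147311 CPM in pregnant and 70152 CPM in non-pregnant mice for hepatocyte markers, and 1240 CPM in pregnant and 502 CPM in non-pregnant mice for erythroid markers. The part of these shifts in the list's changes was not tested. The largest changes were in Fkbp11, a prolyl isomerase of the secretory pathway, Creld2, an endoplasmic reticulum stress protein, and Sdc1, the proteoglycan syndecan-1 (CD138), all of which are also made by hepatocytes. Fkbp11 averaged 46.7 CPM in pregnant and 8.22 CPM in non-pregnant livers of germ-free mice, log2 fold change 2.50. In conventional mice the averages were 45.0 CPM in pregnant and 7.42 CPM in non-pregnant livers, log2 fold change 2.60.

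Creld2 rose by 1.27 in germ-free and 1.54 in conventional pregnancy on the log2 scale, and Sdc1 by 1.05 and 1.00. The list's other called genes in germ-free mice were Sec11c, Edem1, Txndc5, Xbp1, Ssr4 and Tent5c. In conventional mice they were Sec11c, Edem1 and Txndc5, of which Sec11c and Txndc5 were no longer called without conventional pregnant replicate 2 (adjusted p = 0.0787 and 0.0552, edgeR), and Txndc5 also not without replicate 5 of that group. In germ-free mice Ssr4 was not called in 6 of 11 fits that left out a library, and Xbp1 not without pregnant replicate 3 (adjusted p = 0.0722) or replicate 5. Among the antibody genes, Igha was at -2.90 and 0.90, Jchain at -0.81 and 0.07, Igkc at -0.47 and -0.12, and Ighm at -0.36 and 0.11 on the log2 scale in germ-free and conventional pregnancy. None of these was called with edgeR, and their difference from the secretion genes was not tested.

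Of 19 B cell surface and signalling genes tested, none was called in conventional pregnancy. In germ-free pregnancy 1 fell and 1 rose, a share near the 10.8% of all genes called there and so no result about the list. Fcer2a, the low-affinity IgE receptor CD23 of mature B cells, fell to 1.14 CPM in pregnant mice, against 2.27 CPM in non-pregnant mice (log2 fold change -0.99, edgeR adjusted p = 0.0153, and 0.0545 without pregnant replicate 3). Ralgps2, a guanine exchange factor, rose by 0.68 (adjusted p = 0.00902). Of 10 B cell transcription factors Bcl6, the germinal centre repressor that hepatocytes also use, fell by 1.18 in conventional pregnancy (adjusted p = 0.00696). Irf8 rose by 1.68 (adjusted p = 0.0280), but without conventional pregnant replicate 2 its log2 fold change was 0.27 and its adjusted p was 0.623, and it also missed the threshold in 4 fits without a conventional non-pregnant library (replicates 1, 3, 4 and 5). In germ-free pregnancy none of the 10 was called. Over all genes 9.02% were called in conventional and 10.8% in germ-free pregnancy, so these few calls are no result about the list.

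Of 6 survival and homing genes tested, Vcam1, a vascular adhesion molecule, rose by 1.75 in conventional pregnancy (edgeR adjusted p = 0.0136) and was at 0.53, adjusted p = 0.198, without replicate 2. In germ-free pregnancy none was called. The call of 1 gene of 6 stands beside 9.02% of all genes called in conventional pregnancy and is no result about the list. Of 10 immunoglobulin receptor genes Asgr1 and Asgr2, the hepatocyte lectin receptors that clear desialylated glycoproteins, IgA among them, rose in both pregnancies. Thus 2 of the 10 rose and none fell in conventional pregnancy, where 9.02% of all genes were called. In germ-free pregnancy 2 rose and 1 fell, where 10.8% of all genes were called. Whether the list differs from all genes was not tested. Asgr1 averaged 1284 CPM in pregnant and 524 CPM in non-pregnant germ-free livers, and 1017 CPM in pregnant and 477 CPM in non-pregnant conventional livers. The same list held 1 gene that fell in germ-free pregnancy, Trim21, a cytosolic antibody receptor, at -0.77 (adjusted p = 0.0389), a call lost in 8 of 11 fits that left out a library.

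Of 18 genes of pathways known to raise Pigr (Toll-like receptor, tumour necrosis factor, interferon, interleukin and hormone receptor signalling), 3 rose and none fell in conventional pregnancy, in which 9.02% of all genes were called and Pigr itself fell. Tnfrsf1a, a tumour necrosis factor receptor, averaged 91.6 CPM in conventional pregnant mice and 54.2 CPM in conventional non-pregnant mice (log2 fold change 0.76, edgeR adjusted p = 0.00163). Tlr4, the lipopolysaccharide receptor, rose by 1.25 (adjusted p = 0.00662). Tlr2, a receptor for bacterial lipoproteins, rose by 2.57 but was at 0.20, adjusted p = 0.831, without replicate 2. In germ-free pregnancy, where 10.8% of all genes were called, Tnfrsf1a rose by 0.77 (adjusted p = 0.00105). No other gene of the list was called there. The count in conventional pregnancy ran from 2 to 4 of the 18 when each library was left out, with the 2 found without pregnant replicate 2. These few calls are no result about the list.

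Genes with the most similar pattern were sought by Pearson correlation of log2 CPM across 22 libraries after group means were removed, as a description. For Igha they were Dctn6 at 0.84, Ccl19 at 0.76, Psmb9 at 0.73, Meiob at 0.72 and Gbp11 at 0.72. For Jchain they were Plscr3 at 0.81, Art3 at 0.79, Prkcd, Col11a2 and Ly6c2 at 0.78. Cd79a was followed most closely by Tlr13 at 0.84, Sept8 at 0.83, Pde1b at 0.82, Plvap at 0.81 and Haus4 at 0.80, and Pigr by Taf3 at 0.86, Efcc1 at 0.84, Sox5 at 0.84 and Fam124a at 0.83. These libraries share depth and composition, including the libraries that stood apart, and the correlations carry no p.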

How the data were processed

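Liver RNA was measured in 22 mice, and the labels give each mouse its own library, made with a NEBNext Ultra kit, which does not keep the strand. The authors deposited estimated counts per gene, and the submitters' processing notes name GRCm38.p6, edgeR 3.24.3 and Salmon 0.11.3, with no annotation release given in the sources used here. The deposited counts were rounded, which moved their sum by 0.00829%. Identifiers were matched to GENCODE M21 symbols (53355 of 53392), which also gave the 1-based coordinates, and promoters came from RefSeq tables of GRCm38.p6. With edgeR 4.0.16 in R 4.3.3, genes were filtered (filterByExpr, minimum count 10, minimum total 15), scaled by TMM and fitted with 1 term per group over all libraries. P-values were adjusted by Benjamini-Hochberg over 15928 genes. Library totals were 18064491 to 30036912, so genes of a few counts are imprecise. Igha passed the filter through its conventional libraries and germ-free non-pregnant replicate 1, in which it was higher.

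The genes and lists were chosen with earlier results of these data known. The text names the 9 genes, at most 3 called genes per list and comparison by size of change together with the other members called of the secretion list, all constant regions, the 3 most abundant variable segments of each kind and the 5 genes most alike to Igha, Jchain, Cd79a and Pigr, of which 1 is not reported here. The other called secretion genes and the leading segments of the 2 libraries that stood apart were named after their values were seen. Variable segments above 20% of their kind in a library numbered 27, 11 and 26 library and segment pairs for Ighv, Igkv and Iglv, of which 0, 1 and 1 rested on 10 or more counts, and they are not named. Alternatives were DESeq2 1.42.0, its size factors in edgeR, no filter, fits of only the groups compared, a replicate block, each library left out, and both libraries that stood apart left out together, the last chosen after seeing the data. Fits were tested on simulated data. Replicate numbers were not treated as pairs in the main fit.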

Additional observations from a re-analysis of the deposited data

Results flagged for a closer look

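Levels of single libraries that lay far from the rest of their group were looked for in 70 sets of a gene and a group, by the gap to the nearest library over the whole range, and 19 were found. Chance flags about 1 in 20 groups of continuous, normally spread values, and this rate does not hold for genes of a few counts whose other libraries are at 0. Of the 19, 5 fell on germ-free non-pregnant replicate 1 and 4 on conventional pregnant replicate 2. No explanation was tested.

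In germ-free non-pregnant replicate 1 Igha was at 2.05 CPM, against 0.0526 to 0.107 CPM in the other 5, Igkc at 12.8 CPM against 2.19 to 4.602 CPM, Ighg2c at 0.376 CPM against 0 to 0.0930 CPM, Iglc1 at 0.855 CPM against 0.0424 to 0.325 CPM and Iglc3 at 0.445 CPM against 0.105 to 0.213 CPM. It was also the highest of all 22 libraries for Ighm, Jchain, Ighg1 and Ighg2b. It ranked 2 of 22 for Cd79a, 3 for Igha and Mzb1, 9 for Cd79b and 11 for Ms4a1. In a fit without it, 17 genes were called between germ-free and conventional non-pregnant mice. In this library 15 of them lay nearer the mean of the other germ-free non-pregnant libraries than the conventional non-pregnant mean.

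In conventional pregnant replicate 2 Mzb1 was at 0.569 CPM, against 0.104 to 0.167 CPM in the other 4, Ms4a1 at 2.41 CPM against 0.580 to 0.993 CPM, Ighg1 at 0.306 CPM against 0, and Ighg3 at 0.131 CPM against 0 to 0.0348 CPM.

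In conventional non-pregnant replicate 4 Ighm was at 8.76 CPM against 3.28 to 5.30 CPM in the other 5, Igkc at 7.11 CPM against 2.36 to 3.67 CPM, and Ighg2c at 0.317 CPM against 0 to 0.0379 CPM. Other libraries of that group that stood out were replicate 5 with a low Cd79b of 0.757 CPM against 1.78 to 2.09 CPM, replicate 1 with an Ms4a1 of 1.65 CPM against 0.599 to 0.985 CPM, and replicate 3 with an Ighg3 of 0.303 CPM against 0 to 0.0635 CPM and 1 Ighe count, or 0.0379 CPM. In germ-free mice, pregnant replicate 4 had an Ighg2b of 0.0934 CPM and an Ighg2c of 0.187 CPM where the other 4 had 0, and non-pregnant replicate 2 had an Ighe of 0.0930 CPM against 0 to 0.0342 CPM, all on 2 to 4 counts.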

How the results depend on the processing

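The Pigr call in conventional pregnancy held in each alternative run. Of 973 alternative values for the comparisons of the 8 genes tested, 890 kept direction and side of the threshold, 5 passed it, none lost it and 78 changed sign. Mzb1 was not tested in the main fit and is not among them. No value that changed sign was called, the lowest adjusted p among them was 0.759 and the largest size 0.50 on the log2 scale. The cause was not tested for any value below.

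DESeq2 called 1 of the 8 genes, Igha, in germ-free over conventional pregnant mice, in the average over pregnancy states and in germ-free pregnancy, where edgeR called none. As above, these calls of Igha are a description. Over all genes DESeq2 called 117 in germ-free over conventional non-pregnant mice (edgeR 25), 108 in pregnant mice (edgeR 21), 303 in the average (edgeR 120) and 7 in the interaction (edgeR 0). Without a filter on low counts 35 genes were called in germ-free over conventional pregnant mice and 2 in the interaction. Fitting only the groups compared gave 5 and, in conventional pregnancy, 890 (1436 with all groups), from fewer samples in the fit. Igha failed the filter on low counts in that alternative in both germ-free comparisons and in germ-free pregnancy, so it has no value there. Leaving out both libraries that stood apart gave 11 genes in germ-free over conventional pregnant mice, 1 in the interaction, and 1 of the 8, Igha, in the average.

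Correlations of same-numbered deviations ran from -0.26 to 0.31. In pregnancy in germ-free mice they were all positive, from 0.004 to 0.147. Libraries of different numbers were not correlated, so whether replicate numbers pair libraries cannot be decided from these values. With a replicate block 1 gene was called in the interaction and no call of the 8 genes tested changed. The sign turned for Igkc in germ-free over conventional pregnant mice (-0.14) and in conventional pregnancy for Jchain (-0.13) and Ms4a1 (-0.043). In germ-free over conventional pregnant mice Ighm turned to 0.0031 with DESeq2 size factors, 0.0010 with DESeq2 and 0.0013 in the fit of those groups alone, and Igkc to -0.0004 without a filter.

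Without both libraries that stood apart, germ-free over conventional non-pregnant mice gave -0.25 for Igkc, 0.018 for Pigr and -0.15 for Cd79a, and pregnant mice gave 0.17 for Ighm, 0.12 for Cd79a and 0.017 for Ms4a1. Conventional pregnancy gave -0.079 for Ighm, -0.26 for Jchain and -0.34 for Ms4a1, and germ-free pregnancy 0.11 for Igkc. The interaction gave 0.50 for Igkc, 0.27 for Cd79a, 0.15 for Cd79b and 0.12 for Ms4a1.

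Leaving out each library in turn, the 8 genes gave 0 to 1 calls in the average, the 1 being Igha without germ-free non-pregnant replicate 1. Over all genes the calls ran from 10 to 29 in germ-free over conventional non-pregnant mice, from 5 to 28 in pregnant mice and from 0 to 2 in the interaction. Log2 fold changes that changed sign ran, in germ-free over conventional non-pregnant mice, from -0.16 to 0.15 for Cd79a, -0.26 to 0.62 for Igkc, -0.43 to 0.11 for Ms4a1 and -0.16 to 0.070 for Pigr. In pregnant mice they ran from -0.64 to 0.11 for Cd79a, -0.38 to 0.15 for Ighm, -0.23 to 0.23 for Igkc, -0.017 to 0.47 for Jchain and -0.74 to 0.00 for Ms4a1, and in the average from -0.31 to 0.064 for Cd79a and -0.13 to 0.31 for Igkc. In conventional pregnancy they ran from -0.37 to 0.029 for Cd79a, -0.37 to 0.16 for Cd79b, -0.039 to 0.32 for Ighm, -0.35 to 0.15 for Igkc, -0.22 to 0.24 for Jchain, -0.30 to 0.48 for Ms4a1 and -0.49 to 0.23 for Iglc2. In germ-free pregnancy they ran from -0.70 to 0.14 for Igkc and -0.37 to 0.13 for Ms4a1. In the interaction they ran from -0.66 to 0.083 for Cd79a, -0.42 to 0.11 for Cd79b, -0.62 to 0.26 for Igkc, -0.65 to 0.14 for Ms4a1 and -0.62 to 0.10 for Iglc2.

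Depth limits the genes with few counts, Igha, Mzb1 and the IgG genes among them. Age and microbiota status cannot be told apart.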
